A study of Arabidopsis thaliana with 14 samples.

Results

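A set of 9 endodermal barrier genes was followed in *Arabidopsis thaliana* across a watering and drought time course: the Casparian strip genes CASP1, CASP2, CASP4, CASP5, MYB36 and ESB1, and the suberin genes GPAT5, ASFT and CYP86A1. They were chosen by locus and are 9 of the 28327 loci that have a probe on the array. Plants 28 days old, grown on soil under long days, were either Col-0 wild type (WT) or the quadruple mutant bri1brl1brl3bak1 (quad), which carries a weak allele of bri1 together with brl1-1, brl3-1 and bak1-3 and so affects the 3 brassinosteroid receptor genes and the co-receptor gene BAK1. Plants were taken at day 0, and then on days 2, 4 and 6 from pots that were watered or left dry. Each of the 7 conditions had 2 replicates, and on each of 14 Agilent arrays the RNA of both genotypes was hybridised together, so that every array gave a quad/WT ratio and a signal for each genotype. The labels name the whole mature plant as the material, and the methods speak both of entire plants and of rosettes pooled for each replicate. How much root was taken is not given in the sources used here, and the genes followed are known from the root.

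The endodermis is the innermost cortical layer of the root. Its cells are sealed to each other by the Casparian strip, a lignin band that stops solutes from passing between cells, and older cells are then coated with suberin, a polyester of fatty acids, glycerol and phenolics that limits uptake across the membrane and loss of water. CASP proteins are membrane proteins that assemble at the site of the strip, ESB1 is a dirigent domain protein needed for its lignin to form a continuous band, and MYB36 is the transcription factor that switches on CASP genes and ESB1. CYP86A1 hydroxylates fatty acids at the terminal carbon, GPAT5 joins fatty acids to glycerol, and ASFT attaches ferulate, so these enzymes supply the aliphatic part of suberin. Suberin is also made in the seed coat and in the periderm of old roots.

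The genotype labels were checked first. On all 14 arrays BAK1, BRL1 and BRL3 were lower in quad, with mean log2 quad/WT ratios of -2.04, -1.66 and -1.18, whereas BRI1, whose allele is a point mutation, had a mean of 0.38 and was below 0 on 1 array. The correlation across genes between the 2 arrays of each condition ran from 0.523 (day 6 drought) to 0.888 (day 2 water). The 2 replicates of a condition also differ in dye orientation, so that variation between plants and between dyes cannot be told apart. On day 4 drought replicate 1 the local background was raised over 22 spots. With 14 arrays the precision of each value is limited by their number. A gene passed when its Benjamini-Hochberg adjusted p from limma was under 0.05, and it was called when the absolute log2 change was also over 1.5. Level differences and ratios are on the log2 scale of normalised signal.

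MYB36 (AT5G57620), ESB1 (AT2G28670), GPAT5 (AT3G11430), ASFT (AT5G41040) and CYP86A1 (AT5G58860) were well above background, by the flag of the scanner software, in all 28 channels (14 arrays, 2 genotypes). CASP1 (AT2G36100) was well above background in 27 channels. These 6 genes are called the broadly detected members, by a limit of 23 of the 28 channels that was set after the values were seen and is used for the other gene lists too. CASP2 (AT3G11550) reached this level in 9 channels and CASP4 (AT5G06200) in 6, and both entered the tests through the groups where they were brightest, so they were counted apart. CASP5 (AT5G15290) was not well above background in any channel and was not tested. MYB36 has 3 probes, which gave ratios of the same sign at day 2 drought, day 4 water and day 6 water on both arrays. ASFT has 2 probes, of which the second was not well above background in any of 28 channels, and the brighter probe was used.

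**Figure D1:**
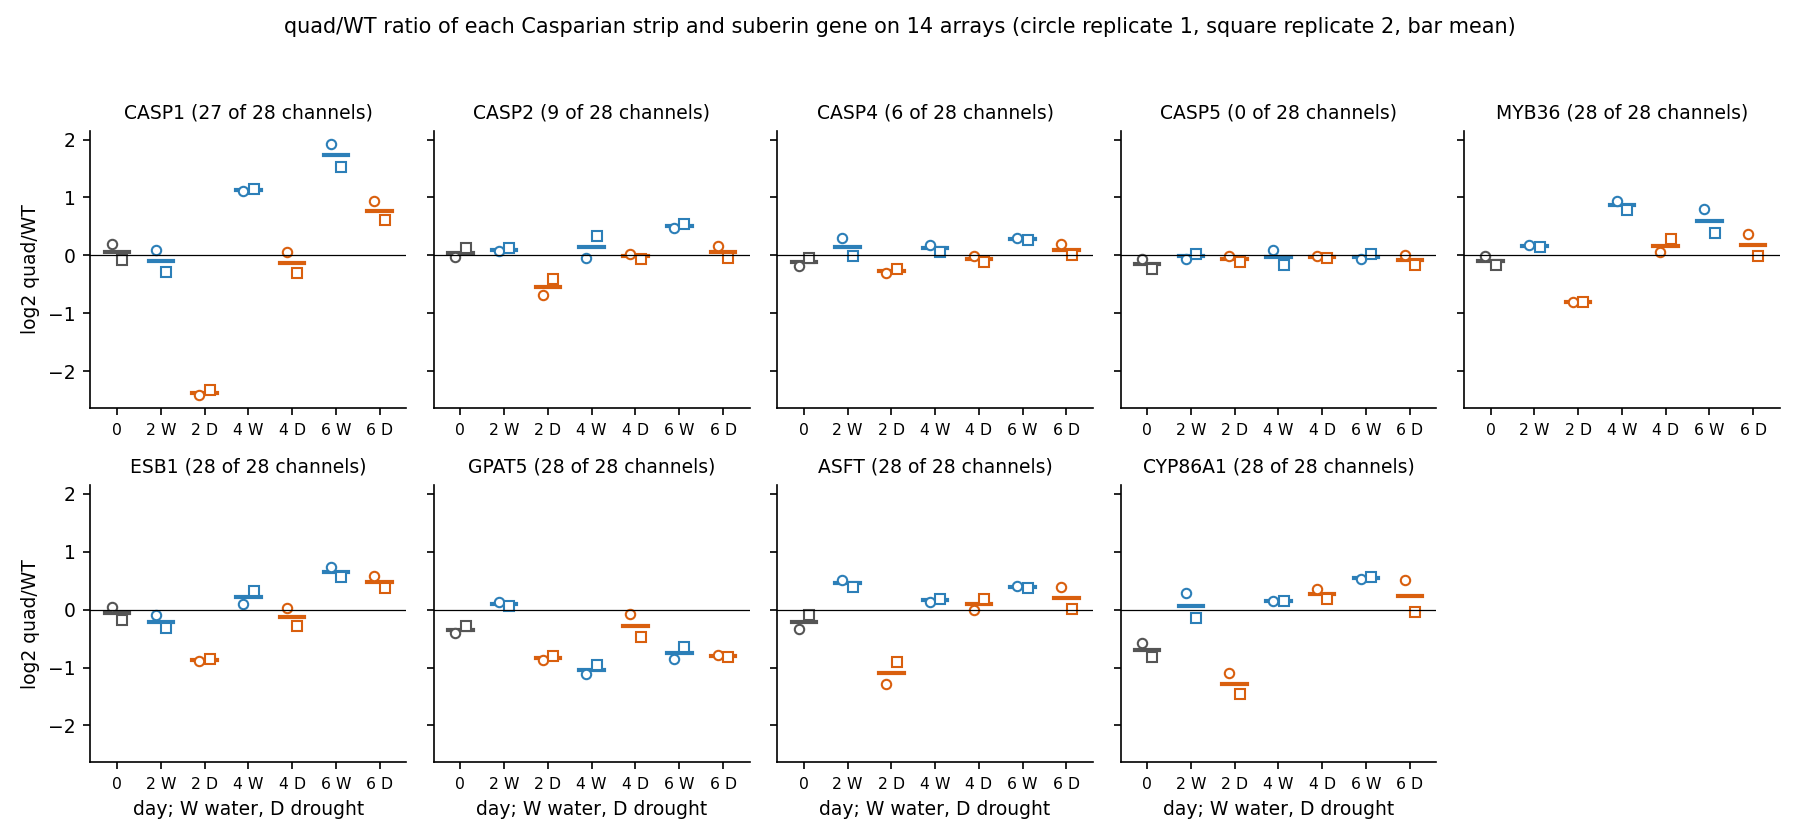
Log2 quad/WT ratio (y) of each of the 9 genes on the 14 arrays, by day and watering (x, W water, D drought); circles are replicate 1, squares replicate 2, bars their mean, and titles give the number of channels well above background. At day 2 drought both arrays of CASP1 lie at -2.42 and -2.33, whereas at day 6 water they lie at 1.93 and 1.53.

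At day 2 of drought the barrier genes were lower in quad than in WT. All 6 broadly detected members passed in this direction, whereas 11.9% of the 22810 genes tested passed as lower. CASP1 was also called, against 0.802% of genes called as lower. The log2 ratios of the 6 lay between -2.37 (CASP1) and -0.81 (MYB36), whereas the median of all genes tested was -0.00938. In bulk plant material, fewer cells of a type and less RNA per cell cannot be told apart, and this holds for every value below.

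For CASP1 the log2 signal in WT at day 2 drought was 8.75 in replicate 1 and 8.85 in replicate 2, and in quad it was 6.33 and 6.52. The WT and quad values were far apart, and those of WT were the highest of any group for this gene. The log2 ratio was -2.37 (SE 0.132, n = 2, limma adjusted p 3.28e-07), a 5.18-fold lower signal. CASP2 was well above background on both arrays in WT and on neither in quad, and its signal was at least 1.44-fold lower in quad. This WT group is one of those through which CASP2 entered the tests, so its p-value is not used. CASP4 was likewise well above background on both arrays in WT and on neither in quad, but its log2 ratio of -0.28 did not pass (limma adjusted p 0.0612).

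The regulator and the dirigent protein were lower as well, by smaller steps. MYB36 had log2 signals of 7.5 and 7.57 in WT and of 6.70 and 6.77 in quad, with a log2 ratio of -0.81 (SE 0.115, limma adjusted p 0.000424). ESB1 gave 10.15 and 10.25 in WT against 9.27 and 9.39 in quad, a log2 ratio of -0.87 (SE 0.107, limma adjusted p 0.000136). In neither gene did the genotypes overlap.

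Among the suberin enzymes CYP86A1 had the lowest ratio at day 2 drought. Its log2 signal was 9.86 and 10.17 in WT and 8.76 and 8.70 in quad, with a log2 ratio of -1.28 (SE 0.14, limma adjusted p 5.53e-05). For ASFT the WT signals of 8.92 and 8.67 stood above the quad signals of 7.63 and 7.76, with a log2 ratio of -1.10 (SE 0.114, limma adjusted p 3.73e-05). GPAT5 gave 7.66 and 7.80 in WT against 6.79 and 7.01 in quad, a log2 ratio of -0.83 (SE 0.1, limma adjusted p 0.00012). All 3 enzymes were thus lower in quad. Taken from the scanner's own processed signals, the log2 ratio of CASP1 was -4.01, and with median centring in place of loess 4 of the 6 broadly detected members passed.

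The same arrays were next read as drought against water inside each genotype. In WT at day 2, all 6 broadly detected members had risen in drought over water, whereas 10.4% of the 22641 genes in this fit rose. CASP1 was called, against 0.892% of genes called as higher. In quad none of the 6 broadly detected members rose, which is near the share of 1.5% of genes that rose. ASFT and CYP86A1 fell, against 5.92% of genes that fell. CASP2 and CASP4 were not well above background in quad at day 2, with water or in drought.

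CASP1 in WT went from log2 signals of 6.61 and 6.66 with water to 8.75 and 8.85 in drought, a log2 change of 2.17 (SE 0.177, limma adjusted p 2.09e-08), and in quad from 6.70 and 6.38 to 6.33 and 6.52 (-0.11, SE 0.177, limma adjusted p 0.865), where the watered channel of replicate 2 was not well above background. The drought arrays of WT therefore stood apart, and the other channels lay close together. CASP2 was not well above background in watered WT at day 2. It was at least 1.3-fold higher in WT drought, a group through which it entered the tests. The other 5 broadly detected members rose in WT by log2 values between 0.61 (MYB36 and GPAT5) and 0.93 (ASFT). In quad ASFT fell by 0.63 (SE 0.118, limma adjusted p 0.00137) and CYP86A1 fell by 0.69 (SE 0.156, limma adjusted p 0.00661). Without day 2 drought replicate 2, 1 of these falls in quad passed, and the rise of CYP86A1 in WT passed neither then nor without day 2 water replicate 1. When the arrays were not scaled to each other, 1 of the 6 broadly detected members passed in WT and none in quad.

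The difference between the genotypes in the change with drought was tested as the quad/WT ratio in drought minus that in water. At day 2 it was below 0 and passed for all 6 broadly detected members, against 15.1% of genes that passed as lower, and CASP1 (-2.28, SE 0.187, limma adjusted p 5.04e-06) and ASFT (-1.56, SE 0.162, limma adjusted p 3.07e-05) were called, against 2.54% of genes. Without day 2 water replicate 1, 1 gene was called, and ESB1 did not pass, nor did it without day 2 drought replicate 1. CASP2 and CASP4 were not well above background in 3 of the 4 groups that enter this difference, so no value is given for them. Drought and water arrays of the same replicate shared a slide at day 2. Within slide 1 the difference for CASP1 was -2.51 and within slide 3 it was -2.05, and with slide as a block it was -2.28. The quad/WT ratios, the changes inside each genotype and this difference are all computed from the same arrays, and so they are not independent of each other.

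**Figure D2:**
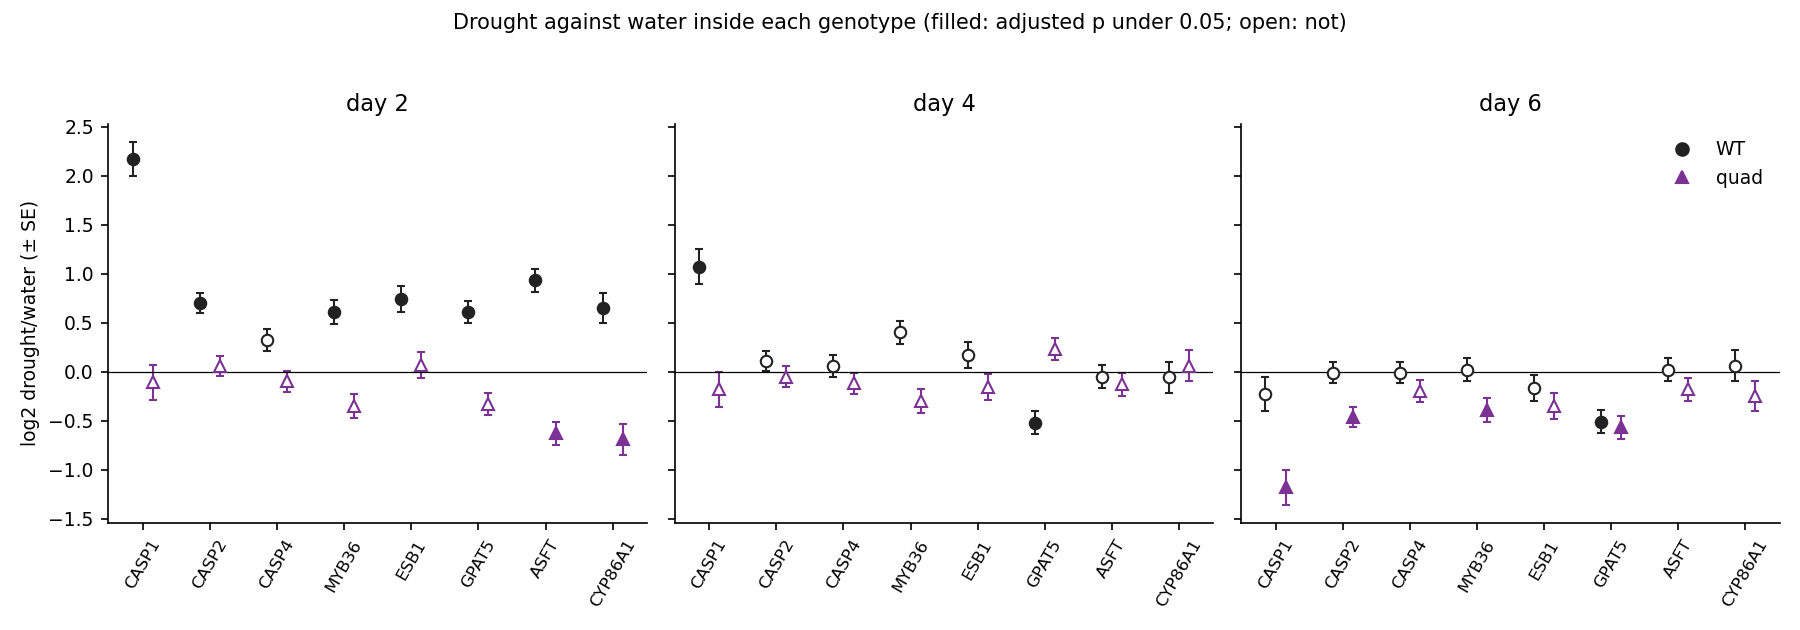
Log2 change of drought over water (y, error bars SE) for the 8 measured genes inside WT (circles) and quad (triangles) at days 2, 4 and 6; filled symbols passed the adjusted p limit of 0.05. At day 2 the filled WT points lie between 0.61 and 2.17, and at day 6 the quad point of CASP1 lies at -1.18.

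With watering, most of these genes were higher in quad by day 6. At day 6 water 5 of the 6 broadly detected members were higher in quad and GPAT5 was lower. Over all genes tested 7.78% passed as higher and 6.78% as lower at day 6 water. CASP1 was called (0.316% of genes called as higher), with log2 signals of 6.65 and 6.77 in WT and of 8.58 and 8.30 in quad and a log2 ratio of 1.73 (SE 0.132, limma adjusted p 6.77e-06). The quad channels of CASP1 stood well above those of WT. The log2 ratios of the other members that were higher ran from 0.39 (ASFT) to 0.65 (ESB1). Of the 6 broadly detected members 3 passed without day 6 water replicate 1, 4 without replicate 2, and 1 with median centring.

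At day 4 water the members were divided, with 2 of the 6 broadly detected members higher in quad, GPAT5 lower (-1.04) and 3 that did not pass. CASP1 (log2 ratio 1.12, SE 0.132, limma adjusted p 0.00011) and MYB36 (0.87, SE 0.115, limma adjusted p 0.00029) passed, against 5.12% of genes that passed as higher. The log2 signals of CASP1 were 6.79 and 6.64 in WT and 7.91 and 7.78 in quad. Those of MYB36 were 6.53 and 6.61 in WT and 7.47 and 7.40 in quad. ESB1, ASFT and CYP86A1 had log2 ratios between 0.15 and 0.21 that did not pass. The dim CASP2 (0.15) and CASP4 (0.12) did not pass either. At day 2 water ASFT alone passed (0.46, SE 0.114, limma adjusted p 0.0128, higher in quad on both arrays, against 13.4% of genes), and without either of the day 2 water arrays it did not.

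Before treatment the strip genes did not pass in either direction. At day 0 the log2 ratios of the 3 broadly detected strip genes lay between -0.09 and 0.06. CASP2 and CASP4 were not well above background in any day 0 channel, so they could not show a difference. CYP86A1 was lower in quad (-0.69, SE 0.14, limma adjusted p 0.00645), with log2 signals of 9.91 and 9.82 in WT and of 9.33 and 9.01 in quad, and GPAT5 was lower by a smaller step (-0.35, SE 0.1, limma adjusted p 0.0465), against 6.57% of genes that passed as lower. Without day 0 replicate 2 neither passed, and the GPAT5 value passed in 13 of 24 alternative settings.

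**Figure D3:**
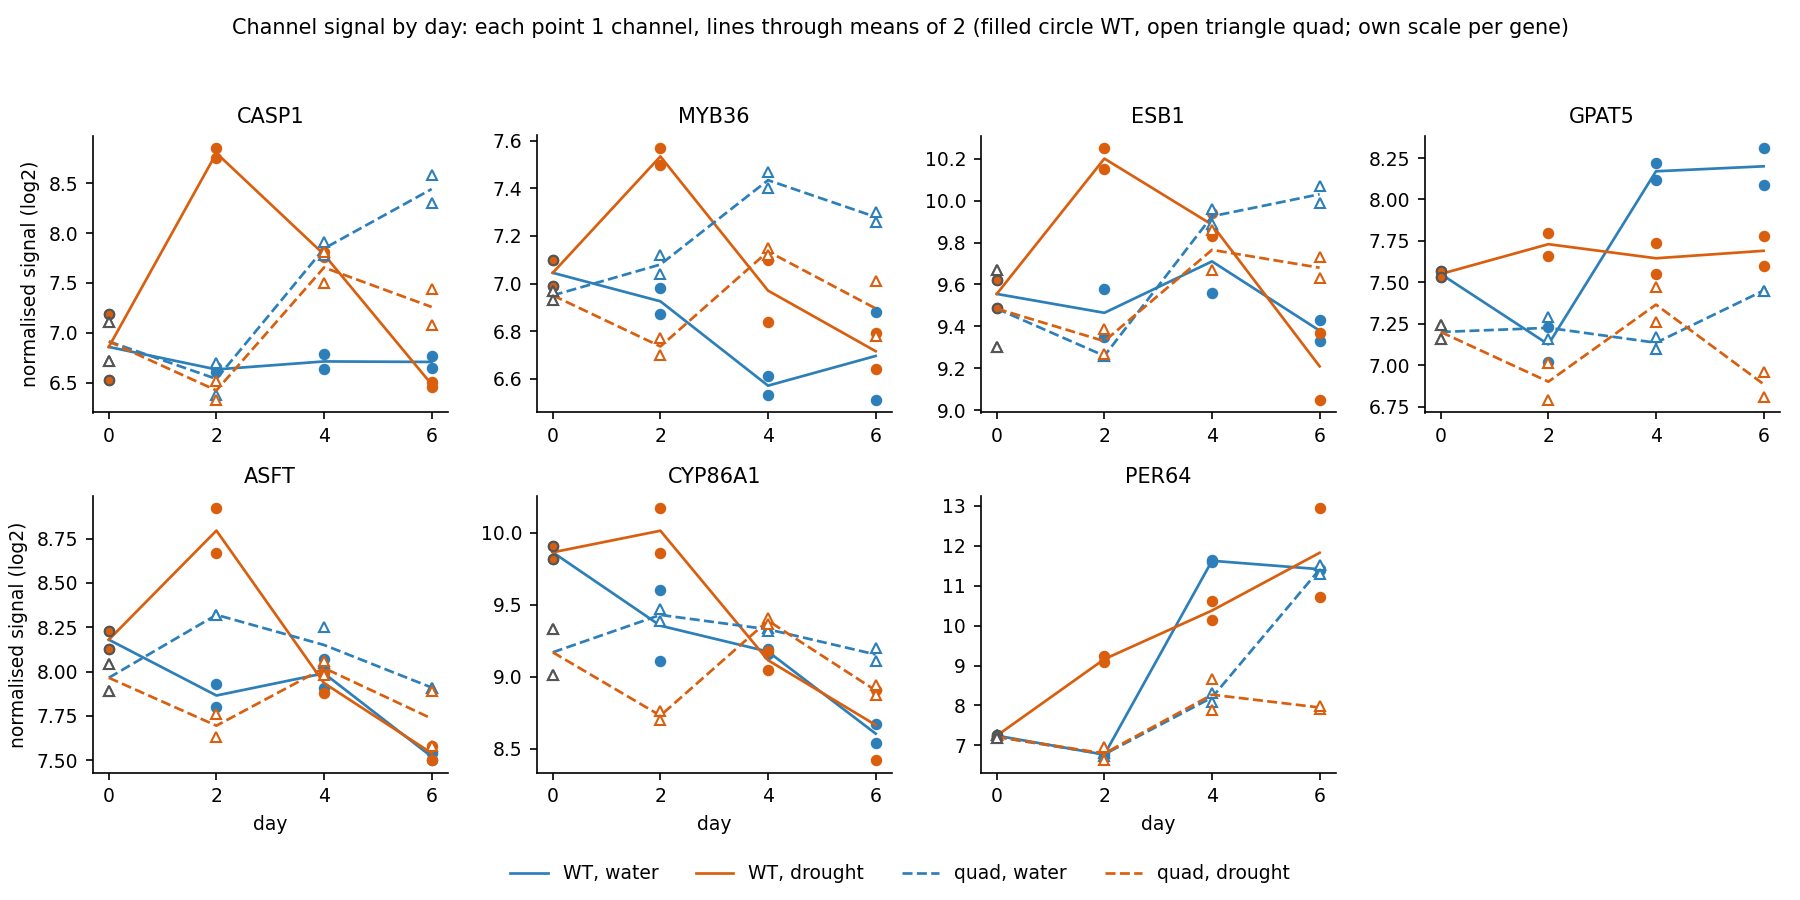
Normalised log2 signal (y, a separate scale for each gene) by day (x) in WT (filled circles, solid lines) and quad (open triangles, dashed lines), with water (blue) or drought (orange); each point is 1 channel and lines join the means of 2. CASP1 in drought peaked in WT at day 2 (8.75 and 8.85), whereas in watered quad its highest signals came at day 6 (8.58 and 8.30).

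Read as levels, CASP1 had its highest mean log2 signal in WT at day 2 drought (8.80 ± 0.071, SD, n = 2), followed by quad at day 6 water (8.44 ± 0.2), quad at day 4 water (7.85 ± 0.092), WT at day 4 drought (7.78 ± 0.035) and quad at day 4 drought (7.65 ± 0.22). Of these, the last 3 lie within each other's spread. Next came quad at day 6 drought (7.26 ± 0.25). The other 8 groups lay between 6.42 and 6.92, with SD of up to 0.47, and their order was not resolved. WT at day 2 drought was also first of the 14 groups for MYB36, ESB1 and ASFT, with no overlap with the next group. For CYP86A1 its values of 9.86 and 10.17 overlapped those of WT at day 0, 9.91 and 9.82, and CASP2 and CASP4 were at background in most groups and were not ranked. The levels compare different arrays and were not tested except as drought against water on the same day.

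At day 4 of drought no measured member passed limma's adjusted test between the genotypes and 1 had an unadjusted p under 0.05, whereas 5.9% of genes passed in either direction. The log2 ratios, as means of both arrays, lay between -0.28 (GPAT5) and 0.27 (CYP86A1). On replicate 1 those of CASP1, MYB36, ESB1, GPAT5 and ASFT were 0.06, 0.05, 0.03, -0.08 and 0. On replicate 2 they were -0.31, 0.28, -0.28, -0.48 and 0.18, whereas CYP86A1 had the larger ratio on replicate 1 (0.36 against 0.19). The deposited ratios of replicate 1 had a slope of 0.996 on the array's own log10 ratio, against 2.283 for replicate 2. Whether the whole array is compressed was not tested. Day 4 drought replicate 1 is the array with the raised background, and without it, or with its affected spots masked, 1 member passed. By day 6 of drought CASP1 (0.77, SE 0.132, limma adjusted p 0.00261) and ESB1 (0.47, SE 0.107, limma adjusted p 0.0137) were higher in quad, against 4.94% of genes. For CASP1 the log2 signals were 6.51 and 6.46 in WT and 7.44 and 7.08 in quad. Without day 6 drought replicate 1, 1 member passed in place of 3, GPAT5 included.

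Inside the genotypes the change with drought after day 2 also differed. In WT at day 4 CASP1 (1.07, SE 0.177, limma adjusted p 0.000836) was still higher in drought than with water, against 0.618% of genes that rose. At day 6 it did not pass in WT (-0.23). In quad no member passed limma's adjusted test at day 4 and 1 had an unadjusted p under 0.05, against 5.12% of genes that passed in either direction. At day 6 of drought CASP1 fell by 1.18 in quad (SE 0.177, limma adjusted p 5.21e-05) and MYB36 fell by 0.39 (SE 0.12, limma adjusted p 0.0301), against 10.6% of genes that fell. CASP2 was at least 1.37-fold lower than in watered quad, a group through which it entered the tests. The signals of CASP1 in watered quad, 8.58 and 8.30, were the ones that stood apart at this time. Without day 4 water replicate 1 or day 4 drought replicate 1, 1 member passed in WT at day 4 in place of 2, GPAT5 included. When the arrays were not scaled to each other, none passed in WT at day 4 or in quad at day 6.

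The test of the difference between genotypes passed at day 4 for CASP1 (-1.25, SE 0.187, limma adjusted p 0.00184) and MYB36 (-0.70, SE 0.163, limma adjusted p 0.0312), against 1.27% of genes that passed as lower. Drought and water arrays of replicate 2 shared a slide at day 4, within which the CASP1 difference was -1.44, whereas those of replicate 1 did not. At day 6 it passed for CASP1 (-0.96, SE 0.187, limma adjusted p 0.0113), against 3.31% of genes. Within the slides shared at day 6 the CASP1 difference was -1 and -0.91. Without day 4 water replicate 1 or day 4 drought replicate 1, 1 member passed at day 4 in place of 3, GPAT5 included. Without day 6 water replicate 1 or day 6 drought replicate 2 no member passed at day 6, and from the scanner's own processed signals none did.

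GPAT5 followed a course of its own. Its quad/WT ratio was below 0 on 12 of 14 arrays, and the mean over the 7 conditions was -0.56 (SE 0.0379, limma adjusted p 4.29e-07), against 19.4% of genes that passed as lower in this mean. The 6 highest of its 14 group levels were all in WT. In watered WT the log2 signals were 7.02 and 7.23 at day 2, 8.22 and 8.12 at day 4 and 8.31 and 8.09 at day 6, whereas in watered quad they were 7.16 and 7.29, then 7.10 and 7.17, then 7.45 and 7.45. From day 4 on the signals of watered WT lay above those of watered quad. GPAT5 was lower in quad at day 4 water (-1.04, SE 0.1, limma adjusted p 2.2e-05), at day 6 water (-0.75, SE 0.1, limma adjusted p 0.000413) and at day 6 drought (-0.80, SE 0.1, limma adjusted p 0.000276). These are conditions in which CASP1 was higher in quad, and the shares of all genes that passed as lower were 7.99%, 6.78% and 7.08%.

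With drought GPAT5 rose in WT at day 2 by 0.61 (SE 0.115, limma adjusted p 0.000798), and it then fell by 0.52 at day 4 (SE 0.115, limma adjusted p 0.0128) and fell by 0.51 at day 6 (SE 0.115, limma adjusted p 0.0039) relative to watered WT, against 1.53% and 7.71% of genes that fell. In quad it fell by 0.57 at day 6 (SE 0.115, limma adjusted p 0.00131). The difference between genotypes in the change with drought was below 0 at day 2 (-0.93, SE 0.142, limma adjusted p 0.000541) and above 0 at day 4 (0.76, SE 0.142, limma adjusted p 0.00859, against 2.87% of genes that passed as higher), so that it changed sign between these days. The fall of GPAT5 in WT at day 4 turned into a value of 0.35 when the arrays were not scaled to each other, and without day 6 water replicate 1 its fall in WT at day 6 did not pass.

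Over the 7 conditions the mean ratio of CASP1 was 0.16 (SE 0.05, limma adjusted p 0.0287) and that of MYB36 0.15 (SE 0.0436, limma adjusted p 0.0172), against 17.5% of genes that passed as higher. With slide as a block neither passed (limma adjusted p 0.212 and 0.162). The means of the other 5 measured members lay between -0.10 and 0.04 and did not pass. For the strip genes the mean thus averages ratios of opposite sign in different conditions.

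Of 13 further genes tied to the Casparian strip 12 were broadly detected, and AT4G13580 was dim and was counted apart. At day 2 drought 5 of the 12 were lower in quad (11.9% of all genes) and none was higher, with a list median of -0.22. The genes called, against 0.802% of all genes, were the lignin peroxidase gene PER64 (-2.35, SE 0.371, limma adjusted p 0.000856), the uclacyanin gene UCC1 (-1.79, limma adjusted p 2.55e-06) and AT2G39430, annotated as a dirigent-like protein (-1.59, limma adjusted p 2.06e-05). UCC1, which codes for a copper protein of the cell wall, had log2 signals of 8.56 and 8.34 in WT and of 6.51 and 6.82 in quad. At day 6 water 6 of the 12 were higher in quad (7.78% of all genes) and none was lower. With drought at day 2, 6 of the 12 rose in WT (10.4% of all genes), among them PER64 (2.39), AT3G24020 (1.73), a second dirigent-like gene, and UCC1 (1.70). For AT2G16385 the difference between genotypes in the change with drought was called at day 2 (-1.57, limma adjusted p 1.08e-05). In quad 1 of the 12 rose with drought at day 2 (1.5% of all genes) and 2 fell (5.92%). UCC1, AT2G39430 and AT3G24020, named because they were called in a comparison, were each lower at day 2 drought and higher at day 6 water, as CASP1 was. At day 2 water AT2G39430 was also lower in quad (-0.79 and -0.57), where the ratios of CASP1 were 0.09 and -0.28.

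PER64 did not follow the CASP genes after day 2. In watered WT its log2 signals were 6.81 and 6.73 at day 2, then 11.60 and 11.64, then 11.42 and 11.40 by day 6, whereas in watered quad they were 6.82 and 6.74, then 8.08 and 8.32, then 11.51 and 11.30. The signal was thus far above its day 2 level at day 4 in WT, and in quad at day 6. The log2 ratio was -3.42 at day 4 water (SE 0.371, limma adjusted p 5.71e-05), whereas at day 6 water the arrays gave 0.10 and -0.10. In drought PER64 was lower in quad at day 4 (-2.10, SE 0.371, limma adjusted p 0.0054) and at day 6 (-3.87, SE 0.371, limma adjusted p 4.8e-05), where the 2 arrays differed widely, with ratios of -2.81 and -4.94. In quad at day 6 it fell by 3.46 with drought (limma adjusted p 3e-06). Its mean over the 7 conditions was called (-1.68, limma adjusted p 2.37e-06, against 0.0438% of genes called as lower).

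Of 20 further suberin genes 16 were broadly detected. AT2G48130 was dim and was counted apart, and MYB9, MYB39 and MYB41 were not measured. At day 2 drought 10 of the 16 were lower in quad (11.9% of all genes) and none was higher, with log2 ratios from -1.28 to -0.10 and a list median of -0.43. ABCG6, a transporter that exports suberin precursors, had the lowest ratio (-1.28, limma adjusted p 2.84e-05), with log2 signals of 8.52 and 8.61 in WT and of 7.22 and 7.34 in quad. It was followed by CYP86B1, a hydroxylase of very long fatty acids (-0.88), and by FACT, which esterifies fatty alcohols with caffeate (-0.81). The difference between genotypes in the change with drought at day 2 passed below 0 for 11 of the 16 (15.1% of all genes), and ABCG6 was called (-1.75, limma adjusted p 3.16e-05). In WT 6 of the 16 rose with drought at day 2 (10.4% of all genes) and in quad 7 fell (5.92%). At day 6 water 5 were higher in quad (7.78%) and none was lower. GPAT7, a relative of GPAT5, was lower at day 2 drought (-0.45, limma adjusted p 0.00366) without passing at day 4 water or at day 6. CYP86B1, FACT and GPAT7 were picked after their values were seen.

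Cutin is the polyester of the shoot surface and is built by sister enzymes of the same families, so 16 cutin genes served for comparison, of which 15 were broadly detected and ABCG11 was dim. At day 2 drought 1 of the 15 was lower in quad (CYP86A2, a fatty acid hydroxylase and relative of CYP86A1, -0.47, limma adjusted p 0.00275) and the list median was 0.07; this gene too was named after its values were seen. No cutin gene was called in any of the 17 comparisons. This is near the share of all genes called in either direction, which ran from 0.0745% to 2.71% by comparison. At day 2 water 8 of the 15 were lower in quad (8.06% of all genes), with a list median of -0.33.

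**Figure D4:**
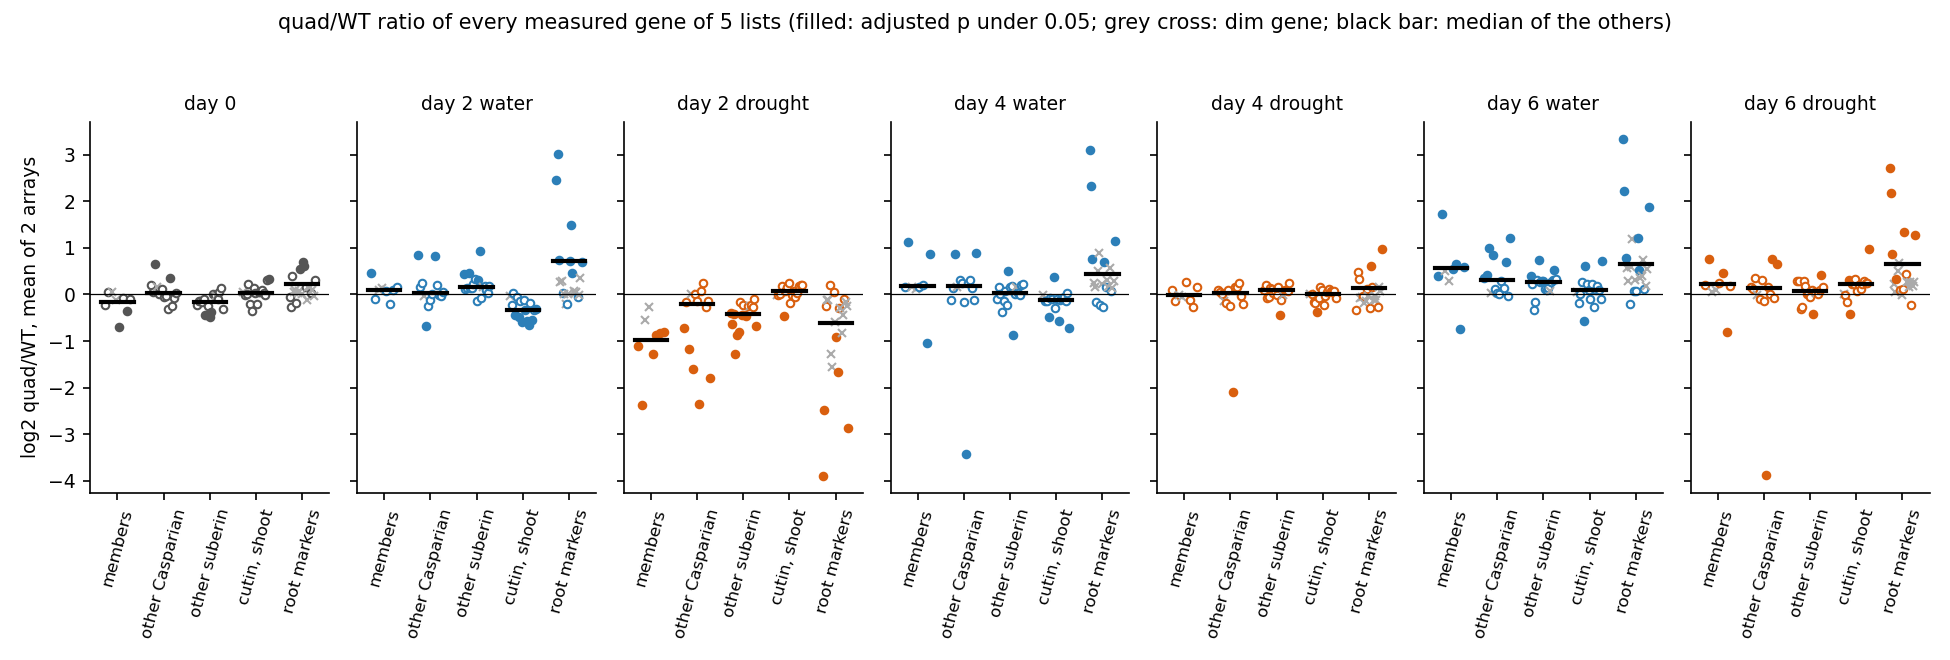
Log2 quad/WT ratio (y, mean of 2 arrays) of every measured gene of 5 lists (x) in each condition; filled points passed the adjusted p limit of 0.05, grey crosses are dim genes and black bars are medians of the broadly detected genes. At day 2 drought the median of the 6 broadly detected members is -0.99 and that of the cutin genes 0.07, and the lowest point among the other Casparian strip genes at day 4 water is PER64 at -3.42.

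Some markers of other root tissues moved in the same conditions. Of 20 root markers 10 were broadly detected, 6 of the cortex and general root list and 4 of the stele. At day 2 drought 5 of these 10 were lower in quad and none was higher, against 11.9% of all genes, and they were 4 of the 6 cortex and general root markers and 1 of the 4 stele markers. At day 4 water 5 of the 6 and none of the 4 were higher (5.12% of all genes), at day 6 water 5 of the 6 and 1 of the 4 (7.78%), and none was lower. At day 2 water, where ASFT alone of the members passed, 7 of the 10 were higher (13.4%). The 6 root hair and 3 root cap markers and SKOR, a stele channel, were dim, entered the tests through the groups where they were bright, and were left out of these counts.

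The summed signal of the 10 root markers, on a linear scale, was 13200 and 11400 in WT at day 2 water and 23900 and 20400 in WT at day 2 drought, against 15800 and 15600 in quad at day 2 drought. BGLU23, a beta-glucosidase abundant in roots, made up 50.2% to 75.7% of this sum. Without it the sums were 4290 and 3970, then 8940 and 8490, against 4600 and 4310 in quad. At day 6 water they were 4400 and 5020 in WT and 8540 and 8080 in quad. The number of all 20 markers well above background on both arrays was 8 in WT at day 2 water, 18 in WT at day 2 drought and 10 in quad at day 2 drought, and at day 6 water it was 11 in WT and 20 in quad. The number not well above background on either array ran from 0 in quad at day 6 water to 12 in WT at day 2 water. Both counts include the 10 dim markers, and the share over all genes was not computed. The 6 root hair markers alone went from 0 in WT at day 2 water to 6 in WT at day 2 drought. That drought group is one of those through which these dim markers entered the tests, so nothing is drawn from this count. The part of these root marker shifts in the results on the barrier genes was not tested.

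The mean ratio of the 10 root markers was -1.23 and -1.21 on the day 2 drought arrays, and on the other 12 arrays it lay between 0.10 and 1.03. At day 4 water it was 0.65 and 0.86 and at day 6 water 1.03 and 0.97. The median of the 10 was closer to 0, at -0.68 and -0.56 at day 2 drought and 0.44 and 0.91 at day 6 water. At day 2 drought the median ratio was -2.08 for the cortex and general root markers and -0.19 for the stele markers. CASP1 had its lowest ratios at day 2 drought and its highest at day 6 water, and at day 2 water, where the root mean was 0.97 and 0.90, its ratios were 0.09 and -0.28. GPAT5 was below 0 both where the root mean was low and at day 4 water and day 6, where it was high. Markers of the shoot moved as well. Of 6 leaf mesophyll markers, all well above background in every group, 2 were called lower in quad at day 2 drought (0.802% of all genes). They were the chlorophyll-binding protein genes LHCB1.1 (-1.61) and LHCB2.1 (-1.94), and the other 4 did not pass, with ratios up to 0.15. At day 0, where the lowest ratio was -2.48, 1 of the 6 was called lower (0.636% of all genes). At day 2 water 4 of the 6 passed as lower (8.06% of all genes). The summed signal of the 6 ran from 97700 to 223000 in WT and from 60500 to 112000 in quad. Of 5 flower markers, all well above background in every group, 5 were higher in quad at day 2 drought (5.74% of all genes, list median 0.68), 3 were lower at day 4 water (7.99%, median -0.80) and 5 were higher at day 6 drought (4.94%, median 0.62). Their summed signals were 1940 to 14100 in WT and 3810 to 17500 in quad. The part of these shoot markers in the results was not tested either. Of 4 seed storage markers no group had more than 1 well above background on both of its arrays.

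**Figure D5:**
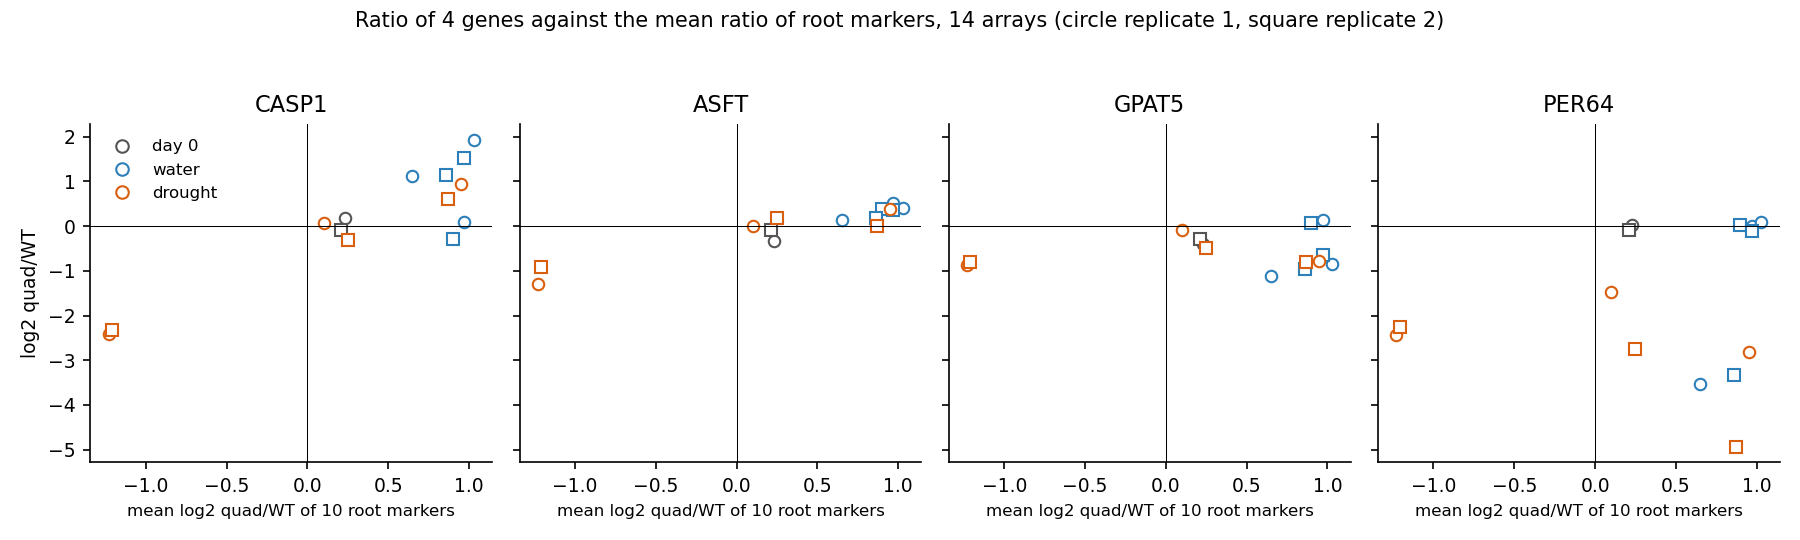
Log2 quad/WT ratio (y) of CASP1, ASFT, GPAT5 and PER64 against the mean log2 quad/WT ratio of 10 root markers (x) on 14 arrays; circles are replicate 1 and squares replicate 2. The day 2 drought arrays stand alone on the left (root means of -1.23 and -1.21), and to the right of 0 CASP1 and GPAT5 point in opposite directions at day 4 water and day 6.

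Likeness between courses was described by Pearson's r of the ratios over the 14 arrays, with no test, since the arrays fall into 7 pairs and share the same plants across genes. CASP1 was most like ESB1 (r = 0.958) and MYB36 (0.902), and its r with GPAT5 was -0.143. Without the day 2 drought arrays (12 arrays) these values were 0.911, 0.733 and -0.748. With the mean of the root markers the r of CASP1 was 0.9 over 14 arrays and 0.603 over 12, and that of ASFT was 0.947 and 0.771. Among all genes outside the set, those most like the mean of the 5 measured Casparian strip genes were ADF11, an actin depolymerizing factor (r = 0.991), AT4G30170 (0.988), AT5G57625 (0.986), MOP10, a proline-rich protein-like gene (0.985), and AT1G30870 (0.984). That mean includes the dim CASP2 and CASP4, and no r without the day 2 drought arrays is given for these genes. ADF11 had log2 signals from 6.2 in WT and from 5.99 in quad, whereas CASP5, not well above background in any channel, had signals up to 6.28 and 6.27. AT4G30170 had a mean log2 ratio of -3.72 at day 2 drought, whereas with water it stood at 2.01 on day 4 and 3.11 on day 6. These steps were larger than those of CASP1. That AT4G30170 moved in the same conditions as CASP1 follows from its selection by likeness. Most like the mean of the 3 suberin genes were AT3G22620 (0.961), the AT-hook gene AHL20 (0.956), EDA21 (0.952), GAD, a glutamate decarboxylase (0.951), and AT4G39320 (0.946).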

How the data were processed

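RNA of WT and quad was hybridised together on 14 arrays on 4 slides. Per the file headers, Feature Extraction 10.5.1.1 wrote the scanner files, which hold intensity and background intensity per spot. The authors also deposited normalised log2 ratios, found to be Cy5 over Cy3 by comparison with the log10 ratio deposited in each array's scanner file (on day 4 drought replicate 1 on a compressed scale) and used as an alternative only. Median intensities were corrected with limma 3.58.1 (R 4.3.3; normexp, offset 50), then normalised by loess and Aquantile. The offset pulls log2 changes of dim genes towards 0. Control and outlier spots were left out. The brightest probe stood for each of 28327 loci, named from RefSeq (TAIR10.1), and 22810 genes were kept, each well above background on both arrays in 1 or more groups. Ratios were fitted with lmFit and eBayes, 1 coefficient per condition. Drought against water inside a genotype was fitted on single channels (lmscFit, intraspot correlation 0.25, 22641 genes). "At least N-fold" sets a dim group at the higher of its own signal and the lowest signal well above background. Unused per-sample columns of unclear sample numbered 0. Fits were tested on simulated data. Of the set, 1 further member is not reported here. The members and lists were chosen with earlier results of these data known. Named were the members, list genes called in a comparison and the 5 genes most like each group. No coordinates are given, because no genome build was matched to the array. Promoter and probe sequences were not used here.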

Additional observations from a re-analysis of the deposited data

Results flagged for a closer look

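The genotypes differed in their change with drought, by the fit's own test of the quad/WT ratio in drought minus that in water, for 10 of 18 pairs of broadly detected gene and day (limma, adjusted over all genes). Of all genes 21.1% passed this test in either direction at day 2, 4.14% at day 4 and 4.7% at day 6. At day 2 the values were -2.28 for CASP1, -1.56 for ASFT, -1.35 for CYP86A1, -0.96 for MYB36, -0.93 for GPAT5 and -0.67 for ESB1. On day 4 they were -1.25 for CASP1, -0.70 for MYB36 and 0.76 for GPAT5, the one positive value. On day 6 the value for CASP1 was -0.96. CASP2 and CASP4 were mostly not well above background and are left out.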

How the results depend on the processing

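Of 54 pairs of gene and comparison past the adjusted p limit, 464 of 524 values under other settings kept direction and call, 59 lost the call and 1 turned: GPAT5 in WT on day 4, drought against water, was 0.35 with loess without Aquantile. Without 1 array, 693 of 756 kept both and none turned. The cause of each change was not tested. The pairs are of the 8 measured members. Some of them are of the dim CASP2 and CASP4, which entered the tests through their brightest groups. The counts below are of the 6 broadly detected members. With adjusted p alone (no limit on log2) the calls went to 2 on day 0, 1 on day 2 water, 6 on day 2 drought, 3 on day 4 water, 6 on day 6 water, 3 on day 6 drought and 3 in the mean, to 6, 3 and 1 for the difference in the change with drought on days 2, 4 and 6, to 6, 2 and 1 in WT on days 2, 4 and 6, and to 2 and 3 in quad on days 2 and 6.

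With median centring the members past adjusted p were 0 on day 0, 0 on day 2 water, 4 on day 2 drought, 1 on day 6 water, 1 on day 6 drought and 1 in the mean, 1 and 0 for the difference on days 4 and 6, 1 and 0 in WT on days 4 and 6, and 1 in quad on day 2. With the scanner-processed signals the members past adjusted p were 0 on day 2 water, 1 on day 4 drought, 0 for the difference on day 6 and 0 in quad on day 2, and those called were 2 on day 2 drought, 3 on day 4 water, 1 on day 6 drought, 2 for the difference on day 4, 1 in WT on day 4 and 1 in quad on day 6. With offset 0 the called were 2 on day 4 water, 1 on day 6 drought, 1 for the difference on day 4, 1 in WT on day 4 and 1 in quad on day 6, and 0 passed for the difference on day 6. Without Aquantile, 1 passed in WT on day 2, and 0 passed in WT on days 4 and 6 and in quad on days 2 and 6. With the mean over probes 1 was called for the difference on day 2. With masked spots 1 passed on day 4 drought. With slide as a block 1 passed in the mean.

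Without 1 array in turn, the members past adjusted p ranged over 0 to 2 on day 0, 0 to 1 on day 2 water, 0 to 1 on day 4 drought, 3 to 6 on day 6 water, 1 to 3 on day 6 drought and 2 to 3 in the mean, over 5 to 6, 1 to 3 and 0 to 1 for the difference on days 2, 4 and 6, over 5 to 6, 1 to 2 and 0 to 1 in WT on days 2, 4 and 6, and over 1 to 2 and 2 to 3 in quad on days 2 and 6. The called ranged over 1 to 3 for the difference on day 2. Without the filter none of 34 counts moved by over 1.5 times. The deposited ratios give no value inside a genotype, and none of the 22 counts and 38 pairs they allow moved so far or lost its call. Replicate numbers also name the dye orientation, so whether they mark shared plants cannot be told from these data. Deviations of same-numbered arrays correlated with r of 0.00402 to 0.634 (median 0.413) over 21 pairs of conditions. The replicate block changed 0 of 54 calls and 0 of 34 counts. Dim genes, CASP2 and CASP4 above all, are limited by signal over background.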
